A study of Caenorhabditis elegans with 12 samples.

Results

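The response of Caenorhabditis elegans carrying the atfs-1 allele tm4525 to RNAi against spg-7 was measured on 6 arrays, 3 of mutant worms fed bacteria for spg-7 RNAi and 3 of mutant worms fed bacteria for control RNAi, out of 12 arrays in all. These 6 arrays were chosen by their genotype and RNAi labels, and every gene that could be tested, 10385 in number, was described across them. The other 6 arrays hold wild-type worms on the same pair of RNAi treatments, 3 per group, and were used for a shared estimate of the spread and for a comparison of the responses. All worms came from an N2 background, were synchronised with bleach, grew in liquid culture and were collected as whole animals, labelled as the last larval stage (L4). Total RNA was labelled with biotin and hybridised to Affymetrix C. elegans arrays, and each replicate is labelled a biological one. The signal is the authors' probe-set intensity on a linear scale. Changes are differences of mean log2 signal between the RNAi groups, with a standard error (SE) and an adjusted p from limma, and a gene was called at an adjusted p under 0.05.

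Mitochondria import most of their proteins from the cytosol, and chaperones and proteases inside the organelle fold them or break them down. SPG-7 is a subunit of such a protease in the inner membrane, and its loss is a common way to stress mitochondria in worms. ATFS-1 is a bZIP transcription factor that is normally imported into mitochondria and degraded there; when import falters, it enters the nucleus and drives the mitochondrial unfolded protein response, of which the chaperone genes hsp-6 and hsp-60 are the usual reporters. The allele tm4525 is a deletion in atfs-1, so the comparison within the mutant asks which transcripts still follow spg-7 RNAi without normal ATFS-1. Worms under mitochondrial stress are also known to switch on detoxification and pathogen defence genes, among them cytochrome P450 enzymes, glucuronosyltransferases, glutathione S-transferases and secreted lectins.

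The targeted gene went against its label. The probe set of spg-7 read 385, 450 and 313 on the mutant arrays labelled control RNAi against 26208, 17698 and 9968 on those labelled spg-7 RNAi. Every array labelled spg-7 RNAi was thus far above every control array, by 44.0-fold on average (log2 5.46, SE 0.45, adjusted p 1.0e-04 by limma), and the wild-type arrays differed the same way, by 18.3-fold. The depth of the knockdown cannot be read from this probe set, and all directions below follow the labels. The probe set of atfs-1, of a type that can also bind other transcripts, read 523, 386 and 405 on control RNAi against 555, 590 and 618 on spg-7 RNAi, and the difference did not pass (log2 0.44, adjusted p 0.618 by limma). No source used here places it inside or outside the deleted part, so it checks nothing about the allele.

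Over all probe sets but the array controls, dim ones included, replicates of a mutant group correlated at 0.922 to 0.946. Those of a wild-type group correlated at 0.867 to 0.920. Over the genes tested, the average group SD was 1.61 times as large in wild type. The L4 label was set against stage markers. Vitellogenins, the yolk proteins made by the adult intestine, had a median log2 signal of 10.95 to 13.94 on the mutant arrays and 11.89 to 14.61 on 5 wild-type arrays, but 6.46 on replicate 1 of wild type on control RNAi. On that array the major sperm protein genes were also lowest, with a median of 11.52 against 12.98 to 14.74 elsewhere. Results are therefore given with and without this array where they rest on it.

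In the mutant, 98 genes rose on spg-7 RNAi (0.944% of genes tested) and 23 fell (0.221%). The largest rises included cytochrome P450 genes, the tubulin gene tbb-6, spg-7 itself and many genes with no role given here, and 7 of the 23 falls were C-type lectins. Of the 98 rises, 54 were at least 4-fold, with a median log2 change of 2.16 and a range from 0.86 to 6.51. The 23 falls had a median of -2.27, and 16 of them were at least 4-fold. The signals of the RNAi groups did not overlap in any of these 121 genes. Absence of overlap was common, with 1365 genes (13.1%) above all control signals on the spg-7 RNAi arrays and 1323 (12.7%) below them. In wild type the corresponding counts were 342 rises (3.29%) and 149 falls (1.43%), and without wild-type control replicate 1 they were 404 rises (3.89%) and 635 falls (6.11%). The latter counts keep wild-type spg-7 RNAi replicate 1, whose oocyte and embryo markers were also low, and the part of stage in them was not tested.

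Counts depended on how the spread was estimated. The replicate number was taken to pair the mutant arrays, from these data and not from the labels. A fit of the 6 mutant arrays with that number as a block called 641 rises (6.17%) and 528 falls (5.08%). All 98 and all 23 were among them. With that number as a block over all 12 arrays 79 of the 98 rises and 16 of the 23 falls passed, and with a block within each genotype 80 and 17. A fit of the 6 mutant arrays without a block gave 202 rises (1.95%) and 118 falls (1.14%). Leaving out wild-type control replicate 1, which enters only the shared spread, gave 122 rises and 71 falls, again with all 98 and all 23 among them. Leaving out a mutant array gave 39 to 74 rises and 5 to 17 falls.

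**Figure D1:**
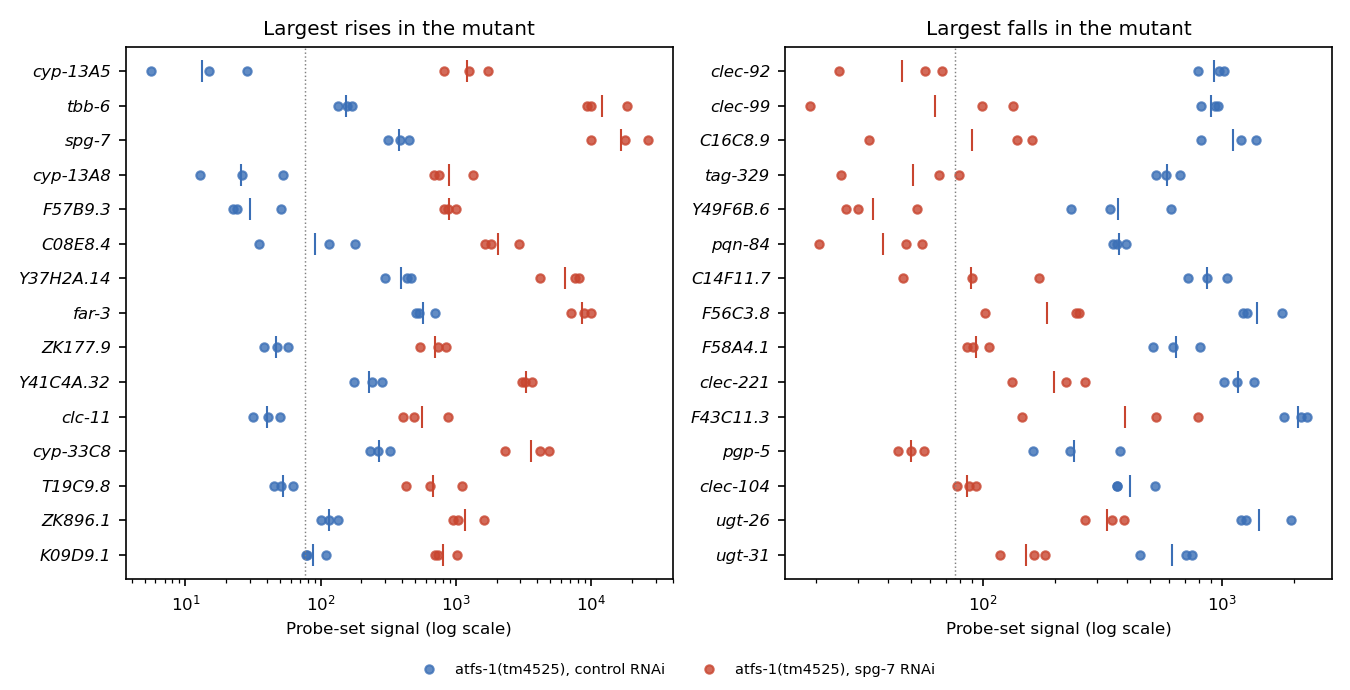
Probe-set signal (log scale) on each of the 6 mutant arrays for the 15 largest rises and the 15 largest falls that passed the test. Points are arrays, blue for control RNAi and red for spg-7 RNAi as labelled, ticks are geometric means of 3 arrays, and the dotted line marks a signal of 76.0, the level of the filter on dim probe sets. The groups do not overlap in any row, and several genes lie left of the line in one group.

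The second largest rise was in tbb-6, which encodes a beta-tubulin and is known as a reporter of a mitochondrial stress pathway that runs through the p38 kinase PMK-3. Its signal was 157, 134 and 171 on control RNAi against 9314, 18474 and 9942 on spg-7 RNAi. The rise was 78.0-fold (log2 6.29, SE 0.31, adjusted p 2.2e-06 by limma), and tbb-6 stayed called whichever of the 12 arrays was left out. The largest log2 change, 6.51, belonged to the cytochrome P450 gene cyp-13A5, which read 28.4, 5.53 and 14.9 on control RNAi against 816, 1724 and 1259 on spg-7 RNAi. Its control signals lie below the filter level of 76.0, where the log2 scale is unstable, and with 32 added to every signal the change was 4.71. Without mutant control replicate 2 it was 5.88.

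Several of the next largest rises belong to genes to which no role is given here. F57B9.3 read 51.1, 24 and 22.6 on control RNAi against 1000, 871 and 811 on spg-7 RNAi (log2 4.88, or 3.87 with 32 added). C08E8.4 read 116, 181 and 35.0 against 1804, 2932 and 1634 (log2 4.51, or 3.83 without mutant control replicate 3), and its second probe set changed by 4.11. Y37H2A.14 read 465, 299 and 433 against 7534, 8106 and 4202 (log2 4.02). In each of these the lowest spg-7 RNAi array was many times the highest control array. ZK177.9, Y41C4A.32, ZK896.1, K09D9.1 and T19C9.8 rose by log2 3.89, 3.86, 3.33, 3.21 and 3.69, and none of them lost its call when any single array was left out. The claudin-like gene clc-11, of a family of membrane proteins found at cell junctions, read 49.7, 40.9 and 31.8 against 494, 874 and 407 (log2 3.80, SE 0.41, adjusted p 7.1e-04 by limma). The gene far-3, for a secreted protein that binds fatty acids and retinol, read 697, 508 and 530 against 9943, 8805 and 7058 (log2 3.89, SE 0.62, adjusted p 0.010 by limma). Of the 12 fits that each left out 1 array, 4 no longer called far-3, although its groups stood far apart on the mutant arrays.

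Across the 98 rises, replicate 2 of spg-7 RNAi was the highest of the 6 mutant arrays for 82 genes and replicate 3 was the lowest of the spg-7 RNAi arrays for 76. The median log2 signal of the 98 was 8.07, 8.16 and 8.25 on control RNAi against 10.31, 10.65 and 10.04 on spg-7 RNAi, so the replicates differed far less than the groups. In 14 of the 98 the control RNAi mean lay below the filter level, and 24 were measured through probe sets that can bind several transcripts. None of the 98 or the 23 differed between the genotypes on control RNAi at an adjusted p under 0.05. Absence of a call does not show equal levels, and those of the 23 are compared below.

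Cytochrome P450 enzymes, which oxidise foreign and endogenous compounds in the first phase of detoxification, held the largest single change. Of 41 tested, 7 rose and none fell, against 0.944% and 0.221% of all genes, and 34 of the 41 had a positive change, with a median of 0.61 against -0.02 over all genes. In the paired fit 15 rose and 1 fell, where 6.17% of all genes rose and 5.08% fell. Besides cyp-13A5, cyp-13A8 read 52.3, 13 and 26.1 on control RNAi against 688, 1347 and 748 on spg-7 RNAi (log2 5.09, or 3.93 with 32 added). The gene cyp-33C8 read 233, 265 and 326 against 4203, 4857 and 2311, a 13.3-fold rise (log2 3.73, SE 0.31, adjusted p 1.0e-04 by limma). In cyp-14A4, the signals were 25.2, 30.5 and 13 against 149, 276 and 158 (log2 3.12, or 2.02 with 32 added). The other 3 P450 rises were cyp-33E2 (log2 3.03), cyp-14A1 (2.45) and cyp-33C9 (1.53).

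Glucuronosyltransferases attach sugars to such compounds in the second phase. Of 45 tested, 8 rose (17.8%) and 2 fell (4.44%), against 0.944% and 0.221% of all genes, and the median change was 0.39. The gene ugt-2 read 218, 249 and 318 on control RNAi against 1925, 3062 and 2171 on spg-7 RNAi, a 9.06-fold rise (log2 3.18, SE 0.24, adjusted p 7.9e-05 by limma). Close to it, ugt-19 read 251, 364 and 342 against 2604, 3782 and 2103 (log2 3.13). The gene ugt-62 went from 2152, 2245 and 1864 to 9838, 12719 and 8250 (log2 2.28). The others that rose were ugt-21, ugt-16, ugt-50, ugt-61 and ugt-1, by 1.34 to 2.34. Against this direction, ugt-26 read 1256, 1199 and 1953 on control RNAi against 389, 347 and 267 on spg-7 RNAi (log2 -2.12, SE 0.27, adjusted p 0.0024 by limma), and ugt-31 read 746, 704 and 454 against 182, 163 and 118 (log2 -2.03). Members of this one enzyme family thus changed in both directions in the same worms.

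Glutathione S-transferases, the other large family of conjugating enzymes, gave 4 rises (14.3%, against 0.944% of all genes) and no fall among 28, with a median of 0.37. The largest was gst-39, which read 646, 586 and 785 against 3476, 4332 and 2905 (log2 2.40, SE 0.33, adjusted p 0.0038 by limma). The gene gst-7 read 2017, 2974 and 1783 against 7967, 8160 and 7454 (log2 1.83), and its chromosomal neighbour gst-6 rose by 1.14. The call of gst-38 (log2 1.84, adjusted p 0.0458) did not survive 8 of the 12 fits that left out an array.

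Among 42 ABC transporters, which export conjugated compounds and other substrates, the P-glycoprotein gene pgp-9 rose and pgp-5 fell. Each is 2.38% of the list, against 0.944% of all genes higher and 0.221% lower. The signal of pgp-9 was 562, 636 and 427 on control RNAi against 3095, 4067 and 2293 on spg-7 RNAi (log2 2.52), and 3 of the 12 fits that left out an array no longer called it. That of pgp-5 was 161, 231 and 374 against 50.0, 56.7 and 43.8 (log2 -2.27), through a probe set that can bind several transcripts. Of the 9 genes of the metal and cadmium response, cdr-4 and cdr-2 rose (22.2%, against 0.944% of all genes) and none fell. The gene cdr-4 read 1288, 1507 and 1602 against 14043, 14408 and 10755, an 8.88-fold rise (log2 3.15, SE 0.22, adjusted p 3.8e-05 by limma). The gene cdr-2 read 1850, 2168 and 1847 against 14367, 12693 and 8743 (log2 2.58). With a median of 1.30 over its 9 genes, this short list had 6 rises in the paired fit, where 6.17% of all genes rose. Flavin monooxygenases and short-chain dehydrogenases (29 tested) had no call, and 8 rises and 1 fall in the paired fit, against 6.17% and 5.08% of all genes. There dhs-27, which read 106, 87.5 and 95.9 on control RNAi, read 329, 347 and 200 on spg-7 RNAi (log2 1.56, adjusted p 0.165, and 0.0108 in the paired fit).

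**Figure D2:**
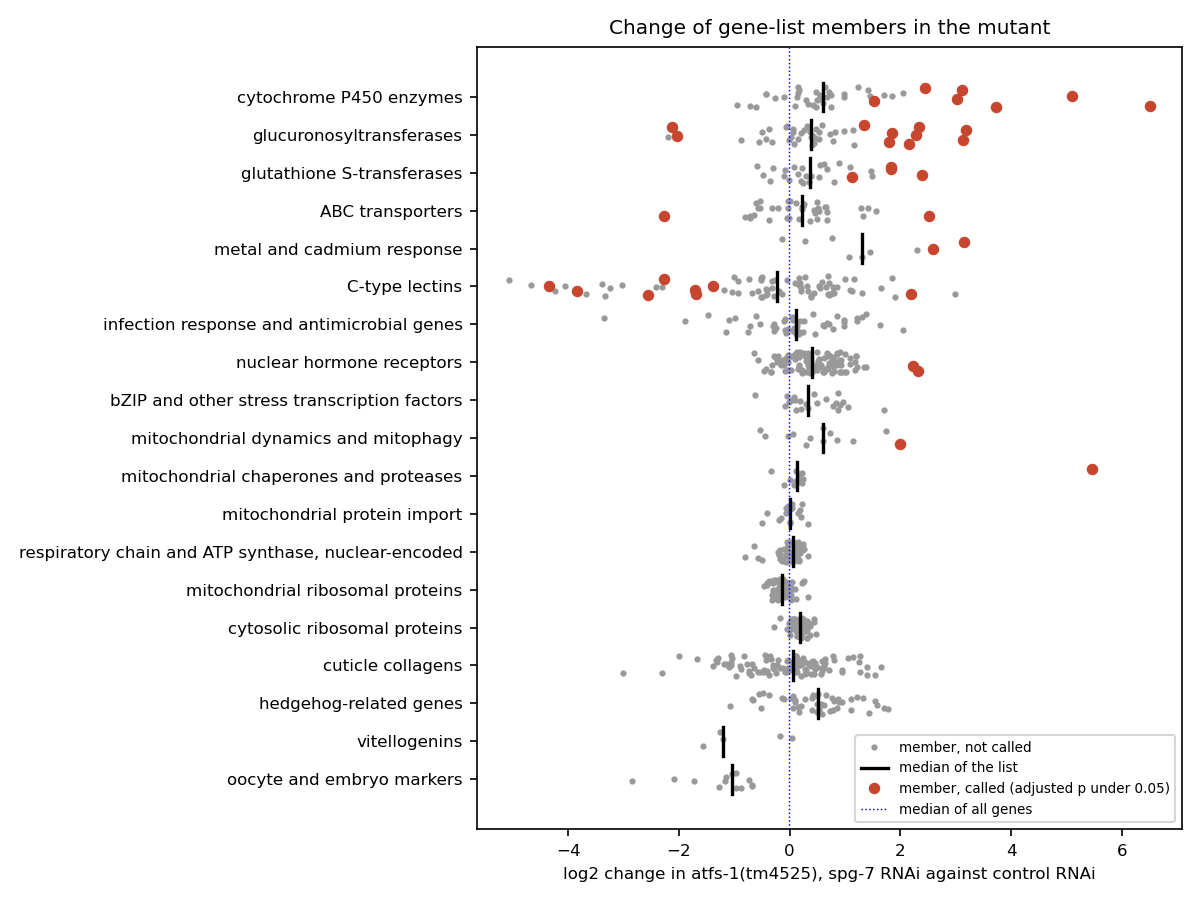
log2 change in the mutant, spg-7 RNAi against control RNAi as labelled, for the members of 19 gene lists. Grey points are members that did not pass, red points members that did, black bars the median of each list, and the dotted line the median of all genes (-0.02). The red points of the detoxification lists lie to the right except for ugt-26, ugt-31 and pgp-5. Those of the C-type lectins lie to the left except for clec-265. Mitochondrial chaperones and proteases, protein import, the respiratory chain and both lists of ribosomal proteins lie close to the dotted line apart from spg-7 itself. Mitochondrial dynamics and mitophagy lie to its right, with a median of 0.60 and fis-2 called.

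C-type lectins are mostly secreted proteins of the intestine that bind carbohydrates and take part in responses to pathogens. Of 78 tested, 7 fell (8.97%) and 1 rose (1.28%), against 0.221% and 0.944% of all genes. The paired fit called 21 falls and 10 rises among them, where it called 5.08% of all genes lower and 6.17% higher. The largest fall of all genes called was that of clec-92, which read 1020, 796 and 967 on control RNAi against 24.9, 56.8 and 67.3 on spg-7 RNAi (log2 -4.34, SE 0.89, adjusted p 0.0455 by limma). Its groups did not overlap, yet 8 of the 12 fits that left out an array no longer called it, and with 32 added the change was -3.59. The gene clec-104 fell from 362, 365 and 522 to 92.9, 87.0 and 77.3 (log2 -2.26, SE 0.32, adjusted p 0.0052 by limma) and was called in every one of those 12 fits. The others were clec-99 (log2 -3.84, or -2.97 without mutant spg-7 RNAi replicate 2), clec-221 (-2.56), clec-133 (-1.71), clec-233 (-1.68) and clec-86 (-1.39). The lectin gene that rose was clec-265, from 1196, 1413 and 2080 to 7231, 9824 and 4750 (log2 2.19, adjusted p 0.0082 by limma). No lysozyme gene (9 tested) and no member of the list of infection response and antimicrobial genes (49 tested) was called. The paired fit called 9 rises and 8 falls in the latter, against 6.17% and 5.08% of all genes. The lysozyme gene lys-2 read 3543, 2902 and 3074 against 13397, 14756 and 6934 (log2 1.81, adjusted p 0.176, and 0.0048 in the paired fit).

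Chaperone and protease genes of mitochondria gave no call in the mutant apart from spg-7 itself. Of 14 such genes 13 did not pass, 12 changes were positive, and the median change was 0.14. In wild type spg-7 was likewise the only 1 called in this list, and the median change was 0.44. The chaperone gene hsp-6 read 4404, 4900 and 4786 on control RNAi against 6168, 4824 and 5578 on spg-7 RNAi, so that 1 spg-7 RNAi array lay between the control arrays (log2 0.23, SE 0.29, adjusted p 0.782 by limma, and 0.380 in the paired fit). The chaperonin gene hsp-60 read 3509, 3134 and 3112 against 2902, 2417 and 2441 (log2 -0.33, SE 0.26, adjusted p 0.696 by limma). In hsp-60 all spg-7 RNAi arrays lay below all control arrays, as was the case for 12.7% of genes. In wild type the same probe sets changed by 0.44 for hsp-6 and -0.49 for hsp-60, and neither passed. The dimmer second probe set of hsp-6 changed by 0.0008 in the mutant and 0.33 in wild type. That of hsp-60 changed by -0.38 in the mutant and 0.32 in wild type, so its probe sets differed in sign in wild type.

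None of 18 genes of mitochondrial protein import passed, with a median of 0.01, nor any in the paired fit. The translocase gene tomm-40 read 1500, 1577 and 2088 against 1577, 1037 and 1320 (log2 -0.40, adjusted p 0.667 by limma). None of the 11 tested regulators of the mitochondrial unfolded protein response passed either. There zip-3, for a bZIP protein that represses the response, changed by 0.49 and ubl-5, for a small ubiquitin-like cofactor, by 0.46. The nuclear-encoded respiratory chain (61 tested, median 0.06), the tricarboxylic acid cycle (32, median 0.03), glycolysis (16, median 0.18) and the mitochondrial ribosome (57, median -0.13) had no call. The member of the respiratory chain with the largest change, the cytochrome c gene cyc-2.2, read 3025, 2749 and 3585 against 2122, 1649 and 1602 (log2 -0.80, adjusted p 0.645, and 0.0343 in the paired fit).

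Of 13 genes of mitochondrial dynamics and mitophagy, fis-2, whose product belongs to the fission machinery, rose from 438, 387 and 323 to 1438, 2217 and 1071 (log2 1.99, SE 0.30, adjusted p 0.0063 by limma). It was called in each of the 12 fits without 1 array, and the median of the list was 0.60. The paired fit called 3 rises in this list, against 6.17% of all genes. Several called genes outside the lists have known mitochondrial roles; they were chosen after their values were seen. The gene mtp-18, for an inner membrane protein of mitochondrial fission, read 421, 375 and 386 against 912, 1240 and 724 (log2 1.25, adjusted p 0.0455 by limma). The gene stl-1, for a stomatin-like protein of mitochondria, read 885, 979 and 1211 against 4295, 4614 and 3347 (log2 1.99, adjusted p 0.0012 by limma). The genes allo-1 and ikke-1, an autophagy receptor and a kinase that together direct the removal of paternal mitochondria from the embryo, rose by 1.73 and 1.16. The gene har-1, for a relative of the human proteins CHCHD2 and CHCHD10, rose by 0.86, the smallest rise called. The carrier gene slc-25A21, named for a mitochondrial transporter family, fell by 1.27 on the log2 scale.

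Nuclear hormone receptors are ligand-activated transcription factors, a very large family in nematodes, and of 110 tested 2 rose and none fell, against 0.944% and 0.221% of all genes. These were nhr-210, from 194, 173 and 111 to 901, 1074 and 483 (log2 2.32, adjusted p 0.0178 by limma), and nhr-115, from 116, 144 and 90.6 to 520, 708 and 428 (log2 2.23, adjusted p 0.0066 by limma). Among all 110, 86 changes were positive and the median was 0.40, and the paired fit called 24 rises and no fall, where it called 6.17% of all genes higher and 5.08% lower. Of 23 bZIP and other stress transcription factors none was called, 19 changes were positive with a median of 0.32, and the paired fit called 7 rises and no fall. The AP-1 family gene jun-1 read 425, 465 and 335 against 897, 943 and 692 (log2 1.05, adjusted p 0.159, and 0.0108 in the paired fit). Of 93 F-box and MATH domain genes, whose products mostly select proteins for ubiquitination, 3 rose (3.23%, against 0.944% of all genes) and none fell. The 3 were fbxa-115 (log2 1.80), fbxa-98 (1.79) and fbxc-54 (1.61), and the paired fit called 13 rises and 3 falls in this list.

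Kinase and signalling genes among the rises, also chosen after their values were seen, included mek-1, a MAP kinase kinase of stress and heavy metal responses, at 596, 838 and 589 against 1749, 2064 and 1170 (log2 1.28, adjusted p 0.0342 by limma). The JNK-like kinase gene kgb-2 rose by 2.28, from signals of 80.3, 91.3 and 49.4. The gene nipi-3, for a Tribbles-family pseudokinase of the defence response, read 379, 423 and 428 against 1569, 2121 and 1222 (log2 1.96, adjusted p 0.0182 by limma). The Skp1-related gene skr-5 rose by 2.42, from 72.9, 111 and 104 to 470, 562 and 483. Rises of genes that handle metals and lipids were those of ftn-1 for ferritin (log2 2.28), cua-1 for a copper-transporting ATPase (1.18), hrg-9 of a family known for haem handling (2.09), abhd-5.1 (1.61) and abhd-5.2 (1.75) for relatives of a human activator of triglyceride breakdown, and hmgs-1 for an enzyme of the mevalonate pathway (1.26). In hmgs-1 the replicates were close, at 598, 623 and 642 on control RNAi against 1540, 1554 and 1365 on spg-7 RNAi (adjusted p 0.0151 by limma).

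Most groups of general metabolism and protein turnover held no called gene. Of 38 intestinal proteases, the aspartyl protease genes asp-8 and asp-4 rose (5.26%, against 0.944% of all genes) and none fell. The gene asp-8 read 1144, 2033 and 809 against 5347, 6815 and 3760 (log2 2.06), and asp-4 read 3937, 4380 and 4158 against 8558, 9397 and 7404 (log2 1.02). A further lysosomal protease gene outside the list, lgmn-1 for legumain, rose by 1.96. No call was made among 77 cytosolic ribosomal proteins, of which 72 had a positive change with a median of 0.18, nor among 33 proteasome subunits (median 0.01), 31 aminoacyl-tRNA synthetases (0.09), 19 genes of the endoplasmic reticulum unfolded protein response (0.20) and 13 cytosolic heat shock genes (0.01). Small heat shock genes varied widely among control arrays: hsp-16.41 read 128, 22 and 449 on control RNAi against 712, 597 and 940 on spg-7 RNAi (log2 2.77, adjusted p 0.451, and 0.0294 in the paired fit). Superoxide dismutases, catalases and peroxiredoxins (20 tested, median 0.29), fatty acid desaturation (15, median 0.49) and fatty acid activation and beta-oxidation (57, median 0.07) had no call either. In all, 29 of 42 lists held no called gene, 33 of the 98 rises and 11 of the 23 falls belonged to a list, and the other 65 and 12 belonged to none.

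Some rises lay side by side in the genome. By the order of protein-coding genes in the RefSeq annotation, 7 pairs of rises lay next to each other or with at most 2 genes between them: gst-6 with gst-7, ugt-1 with ugt-2, cyp-13A5 with cyp-13A8, cyp-33C8 with R08F11.4, abhd-5.1 with abhd-5.2, ZK1055.6 with ZK1055.7 and F58B4.5 with F17C11.11. These pairs took in 14 of the 98 rises, of which 97 had a position. None of the 23 falls had such a neighbour. Related neighbouring genes can share probe binding, and the ZK1055 pair and R08F11.4 were measured through probe sets that can bind several transcripts.

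Beyond the lectins and ugt genes, the falls included several genes with no role given here. Y49F6B.6 read 341, 233 and 613 on control RNAi against 29.8, 26.6 and 52.7 on spg-7 RNAi (log2 -3.40, SE 0.47, adjusted p 0.0043 by limma), and F58A4.1 read 625, 516 and 809 against 105, 85.4 and 90.6 (log2 -2.77, SE 0.39, adjusted p 0.0048 by limma). Both were called in all 12 fits without 1 array, as were clec-104 and ugt-26, and these 4 were the only falls of which that held. The gene pqn-84, named for a glutamine- and asparagine-rich domain, read 348, 364 and 397 against 47.7, 20.6 and 55.5 (log2 -3.28). The others of the 15 largest were C16C8.9 (log2 -3.62), tag-329 (-3.54), C14F11.7 (-3.28), F56C3.8 (-2.93) and F43C11.3 (-2.39), which lost their calls in 6 to 10 of the 12 fits. Without mutant spg-7 RNAi replicate 2, C16C8.9 changed by -2.90 and F43C11.3 by -1.68. The acyltransferase gene oac-20 fell from 302, 200.5 and 317 to 80.7, 45.9 and 80.8 (log2 -2.0). Whether fewer cells of a type or less RNA per cell underlies a lower signal cannot be told apart in RNA of whole worms.

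Levels of stage markers are given beside those of the falls. The median log2 signal of the 23 falls was 9.01, 9.07 and 9.22 on mutant control RNAi against 6.72, 6.42 and 6.94 on mutant spg-7 RNAi. Oocyte and embryo markers had medians of 11.25, 10.81 and 11.89 against 10.44, 8.51 and 11.48, and vitellogenins of 13.81, 13.77 and 13.94 against 13.01, 10.95 and 13.79. In both, replicate 2 on spg-7 RNAi was lowest, and it was also the lowest array for 12 of the 23 falls. All 13 oocyte and embryo markers had a negative change (median -1.05) and none was called. The paired fit called 4 falls among them, against 5.08% of all genes. These included perm-2 and perm-4, for proteins of the eggshell. Major sperm protein genes had medians of 14.74, 14.43 and 14.12 against 14.27, 14.28 and 14.48. In wild type, control replicate 1, the array with low vitellogenins, read a median of 6.70 over the 23 falls, against 8.06 and 8.0 on the other control arrays, and it was the lowest of the 3 for 19 of the 23. The part of stage in the falls was not tested.

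**Figure D3:**
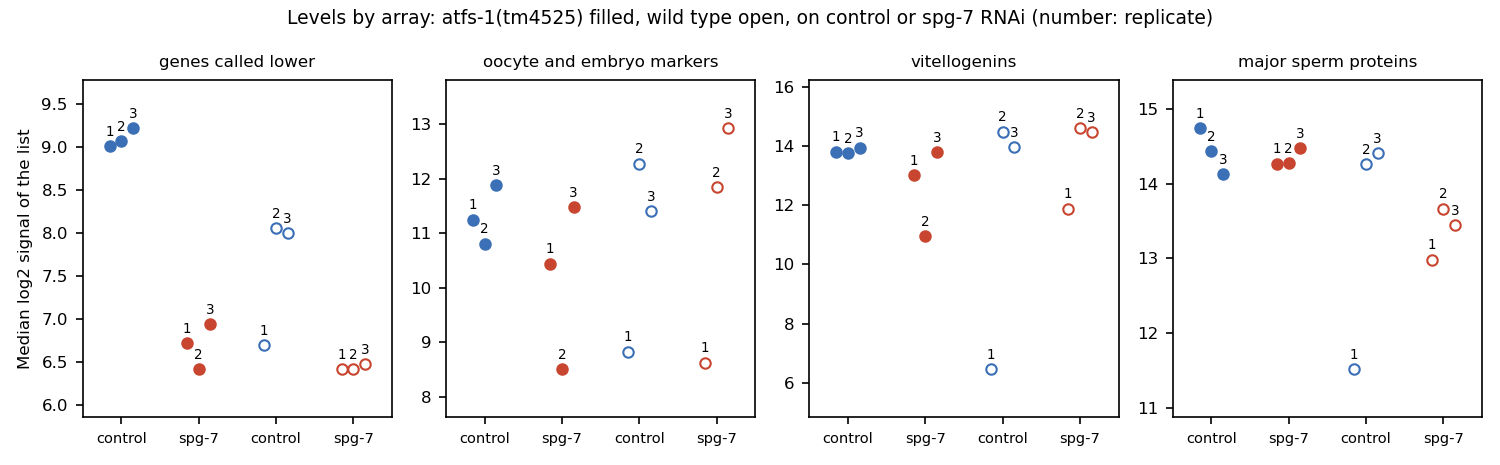
Median log2 signal on each array of the 23 genes that fell in the mutant and of 3 lists of stage markers. Filled points are mutant arrays and open points wild-type arrays, blue for control RNAi and red for spg-7 RNAi as labelled, and numbers are replicates. Mutant spg-7 RNAi replicate 2 (oocyte median 8.51) and wild-type control replicate 1 (vitellogenin median 6.46) stand low. The 23 genes were chosen by their fall, so the separation of their mutant groups is no result.

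Lists of cuticle and skin genes had no call in the mutant. Cuticle collagens (114 tested) had a median change of 0.06, and 62 changes were positive. In wild type their median was -0.96, with 9 falls, where 1.43% of all genes were called lower. Hedgehog-related genes, many of which act in the skin and in moulting, had 39 of 48 changes positive in the mutant and a median of 0.51. The paired fit called 8 rises among them, against 6.17% of all genes. In wild type the median change was -0.84, with 3 falls. The median log2 signal of this list in wild type was 9.42, 8.01 and 8.84 on control RNAi against 8.16, 8.42 and 7.29 on spg-7 RNAi. It was highest on control replicate 1 and rose in replicate 2. The patched-related gene ptr-4 read 448, 513 and 207 against 929, 2023 and 878 in the mutant (log2 1.71, adjusted p 0.471, and 0.0064 in the paired fit), and its difference from the wild-type response was 2.43 (adjusted p 0.735 by limma). Intestine markers (7 tested, median 0.77), muscle markers (14, median -0.07) and neuron markers (9, median 0.21) had no call. The intestinal esterase gene ges-1 read 684, 863 and 450 against 1366, 2056 and 1256 (log2 1.24, adjusted p 0.225, and 0.0065 in the paired fit).

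The mutant and the wild-type responses were measured on separate arrays, each with its own controls. Of the 98 rises in the mutant, 87 were also called in wild type, which is 88.8% of the mutant's rises and 25.4% of the 342 in wild type, where 3.29% of all genes were called. All 98 had a positive change in wild type, with a median of 2.29 there against 2.16 in the mutant. The change was larger in wild type for 59. The 98 were chosen by their calls in the mutant, so these medians are not an even comparison. Without wild-type control replicate 1, 89 of the 98 were called in wild type, which is 22% of the 404 there, and the median was 2.29. The 11 rises not called in wild type were C54E4.5, R09A1.3, Y54G11A.4, ZK1055.7, fbxa-115, fbxc-54, fbxl-5, ggtb-1, gst-38, hmgs-1 and ikke-1. Their adjusted p in wild type lay between 0.0502 and 0.175 and that of the difference between 0.764 and 0.942, so none of them was shown to respond in the mutant alone.

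**Figure D4:**
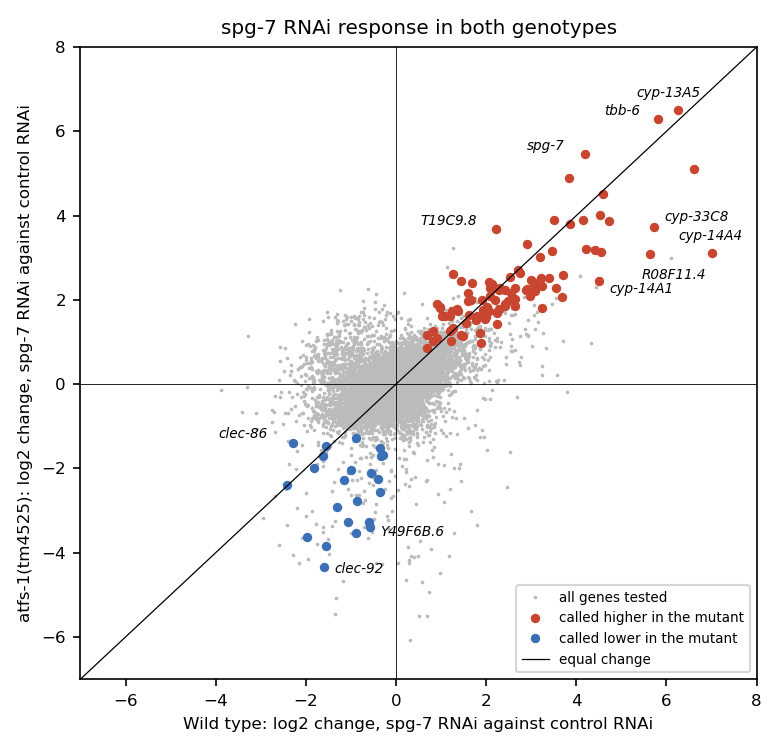
log2 change on spg-7 RNAi against control RNAi as labelled, in the mutant (vertical) and in wild type (horizontal). Grey points are all 10385 genes, red points the 98 rises and blue points the 23 falls of the mutant, and the diagonal marks equal change. The red points follow the diagonal, with cyp-14A4, R08F11.4 and cyp-33C8 to its right, and most blue points lie below it.

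Of the 23 falls in the mutant, 5 were also called lower in wild type (F43C11.3, clec-86, F01D5.2, F45D11.1 and oac-20), which is 21.7% of the mutant's falls and 3.36% of the 149 in wild type, where 1.43% of all genes were called. Without wild-type control replicate 1, 10 of the 23 were called there, which is 43.5% of the mutant's falls and 1.57% of the 635 in wild type, where 6.11% of all genes were then called. That fit keeps wild-type spg-7 RNAi replicate 1, whose oocyte and embryo markers were also low. All 23 were negative in wild type, but with a median of -1.01 against -2.27 in the mutant, and the fall was larger in wild type for 3. These genes too were chosen by their calls in the mutant. Without wild-type control replicate 1 the median in wild type was -1.23. The adjusted p of the difference was between 0.573 and 0.922 for the 18 falls not called in wild type.

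The test of the difference between the responses called no gene. The lowest adjusted p was 0.209, and at an unadjusted p under 0.05 there were 426 genes with a more positive and 221 with a more negative change in the mutant. Without wild-type control replicate 1 it again called 0 genes, with a lowest adjusted p of 0.163. Among the 98 rises the interval of the difference included 0 for 85, and 11 of the other 13 had the smaller rise in the mutant. Among the 23 falls it included 0 for 11, and the other 12 fell further in the mutant. The median log2 signal of the 23 on spg-7 RNAi was 6.72, 6.42 and 6.94 in the mutant and 6.42, 6.42 and 6.47 in wild type. On control RNAi it was 9.01, 9.07 and 9.22 in the mutant against 6.70, 8.06 and 8.0 in wild type. The genotypes thus stood further apart on control RNAi than on spg-7 RNAi. The 23 were chosen by their fall in the mutant, and the part of the control level was not tested.

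Among genes called in the mutant, the lowest p for the difference was that of cyp-14A4, whose wild-type signals went from 42.6, 19.2 and 27.9 to 2597, 5901 and 3204, while the mutant reached 149, 276 and 158. Its rise was smaller in the mutant by 3.89 on the log2 scale, and the difference, mutant minus wild type, was -3.89 (95% interval -5.29 to -2.49, adjusted p 0.209 by limma). It was called in this test with 32 added to each signal. Next among these were R08F11.4, cyp-33C8 and cyp-14A1. R08F11.4 reached 4224, 5493 and 3585 in wild type and 736, 1084 and 418 in the mutant (difference -2.55, 95% interval -3.66 to -1.43, adjusted p 0.448). For cyp-33C8 the difference was -1.98 and for cyp-14A1 -2.06, each with an adjusted p of 0.448. In all 4 genes the highest mutant array on spg-7 RNAi lay below the lowest wild-type one.

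Among the rises with a larger change in the mutant, T19C9.8 rose from 45.1, 62.9 and 50.6 to 648, 1104 and 431 in the mutant, and from 39.6, 42.3 and 69.6 to 238, 220 and 223 in wild type (difference 1.47, 95% interval 0.35 to 2.6, adjusted p 0.714 by limma). R09A1.3 differed by 1.34 and C54E4.5 by 1.00. Among the falls, Y49F6B.6 changed by -3.40 in the mutant and -0.58 in wild type (difference -2.82, adjusted p 0.573), and its wild-type control signals were only 43.5, 122 and 97.4. The gene ugt-26 changed by -2.12 and -0.56 (difference -1.56, adjusted p 0.573), with wild-type control signals of 750.5, 730 and 640 against 1256, 1199 and 1953 in the mutant. For tbb-6 the difference was 0.46 (95% interval -0.51 to 1.44), for cyp-13A5 0.24 (-2.01 to 2.50) and for cdr-4 -0.31 (-0.97 to 0.36). For cyp-13A5 the interval thus takes in differences of several fold in either direction.

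**Figure D5:**
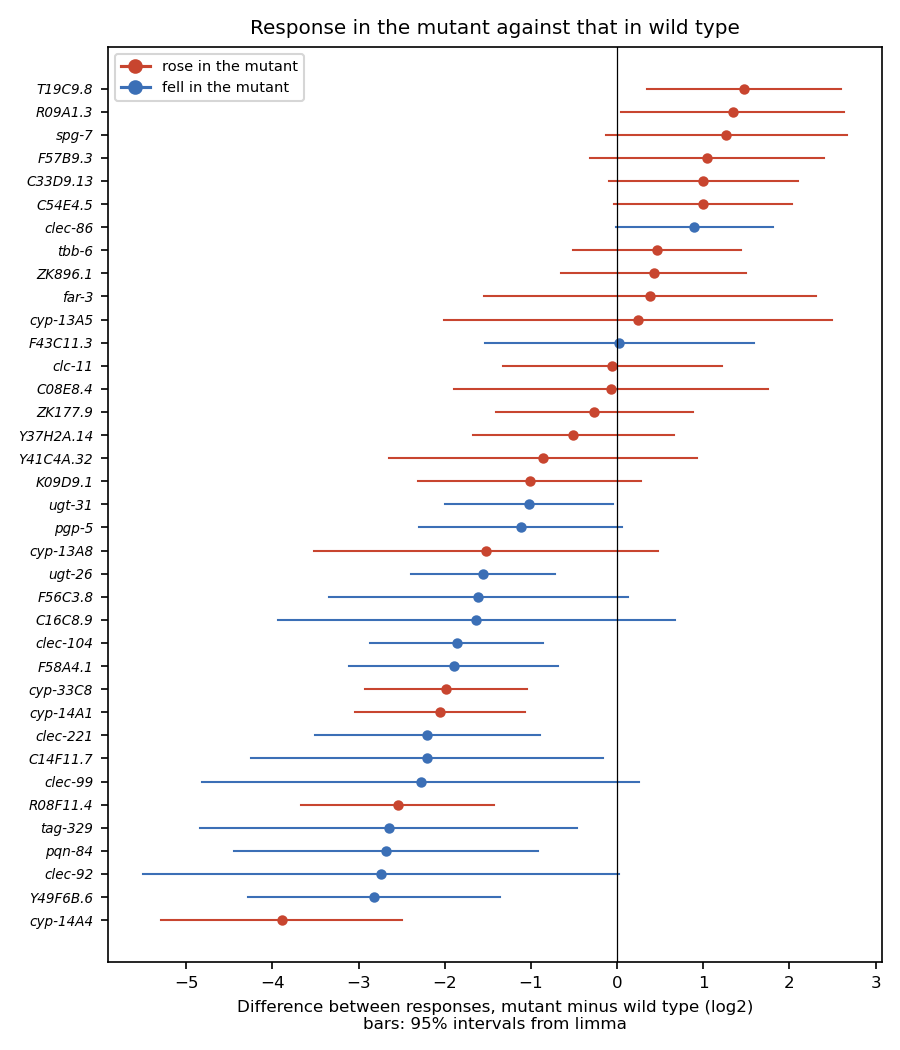
Difference between the responses to spg-7 RNAi, mutant minus wild type on the log2 scale, for the 15 largest rises, the 15 largest falls and the called genes with the lowest p for the difference in each direction. Points are limma estimates from 12 arrays and bars 95% intervals without adjustment, red for genes that rose and blue for genes that fell in the mutant. The interval of cyp-14A4 lies farthest from 0, and most intervals of the largest rises cross 0.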

How the data were processed

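The files hold 1 probe-set signal per array. The authors deposited these intensity values on a linear scale, made with MAS5 per the submitters' processing notes, which give no version or settings. The mean without the lowest and highest probe sets was 499.8 to 499.9 on each array, a common scaling read from the values. Scan batches and detection calls are not used here, and as arrays carry no counts, their number limits the precision.

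Of 22625 probe sets, 77 are array controls; of the other 22548, the platform annotation names a single gene for 20766, more than 1 for 887 and no gene for 895. Signals were floored at 1 (0.509% of values) and taken to log2. The lowest 40% of probe sets by mean log2 signal were left out (below 6.25, a signal of 76.0), which kept 13529, and each gene was represented by its brightest probe set with 1 name, giving 10385 genes: 6672 with unique probe sets and 3250 marked s or 463 marked x, which can bind several transcripts. A model with 4 group means was fitted over 12 arrays with limma 3.58.1 in R 4.3.3 (data.table, version 1.17.8), moderating variances towards a trend (8 residual and 3.71 prior degrees of freedom), and p was adjusted by the Benjamini-Hochberg method over all genes. Summaries and figures used Python 3.11.15, pandas 2.3.3, numpy 2.4.6 and matplotlib 3.10.9. The ratios of control probe sets were tested by exact permutation of the RNAi labels, two-sided. The calling was tested on simulated data with independent noise for each gene and array. That test does not cover deviations shared by many genes on an array, which these data show.

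Mutant arrays of the same replicate number deviated together from their group means, with correlations of 0.286, 0.422 and 0.525, so the numbers were taken to pair them, from the data and not from the labels. The paired fit is a limma fit of the 6 mutant arrays with the replicate number as a block (2 residual degrees of freedom); it and a block within each genotype were added after the data had been seen. Mutant arrays of unlike number, control against spg-7 RNAi, correlated at -0.420 to 0.147. Wild-type pairs correlated at 0.577, 0.119 and -0.101, and wild-type arrays of unlike number at -0.649 to 0.582. The replicate number therefore did not pair the wild-type arrays in the same way.

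Gene order came from the RefSeq annotation of assembly WBcel235, used for neighbours only. The 42 gene lists, the comparisons and the rule for named genes were chosen with earlier results of these data known. Named were the chaperone genes hsp-60 and hsp-6, spg-7 and atfs-1, the 15 largest called changes in each direction without overlap, up to 4 called members per list (or 2 uncalled), and up to 6 called genes of each sign with the lowest p for the difference. Other genes were named after their values were seen. Sequences of the named genes were not used here.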

Additional observations from a re-analysis of the deposited data

Results flagged for a closer look

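Probe sets without a single gene name lie outside the gene comparisons. In a fit of all 13529 kept probe sets, 6 of them rose in the mutant on the arrays labelled spg-7 RNAi and 2 fell. The rises were 2 of 212 without a name and 4 of 465 with several names. The same fit called 94 of 12852 probe sets with a single name higher and 18 lower, so rises were about as common there. The 4 with several names were shared by fbxc-1 to fbxc-5 (log2 1.99), by numr-1 and numr-2 (2.92), which are known to respond to cadmium, by the cytochrome P450 genes cyp-13A11 and cyp-13A12 (3.23), and by arl-7 and warf-1 (2.54). The probe set of numr-1 and numr-2 read 69.7, 63.4 and 63.7 on control RNAi against 447, 596 and 455 on spg-7 RNAi, so that the groups stood well apart (adjusted p 0.0091 by limma). The falls were a probe set shared by the P-glycoprotein genes pgp-6 and pgp-7 (log2 -2.60) and one without a name (-3.42).

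The log2 ratio of the 3 prime to the 5 prime actin control probe sets, a measure of RNA integrity and labelling, was 0.435 ± 0.039 (SD, n = 3) in the mutant on control RNAi and 0.613 ± 0.074 (SD, n = 3) on spg-7 RNAi, a difference of 0.178 with no overlap (exact two-sided permutation p 0.1, the smallest that 3 arrays against 3 allow). The same ratio for Gapdh was -0.02 ± 0.080 against -0.11 ± 0.025 (exact two-sided permutation p 0.2, n = 3 each). Their part in the response was not tested.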

How the results depend on the processing

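The counts stayed within 1.5 times 98 rises and 23 falls under several settings. These were quantile normalisation, median centring, no filter, the mean of a gene's probe sets, no variance trend and a minimum of 2-fold. Without the filter, 75 of the 98 rises and 15 of the 23 falls were called again. Quantile normalisation, median centring, probe-set means and no variance trend kept 82 to 96 of the rises and 20 to 21 of the falls. Array weights gave 888 rises, 644 falls and 96 genes in the test of the difference; limma's weight estimate stopped before its convergence tolerance. A fit of the 6 mutant arrays only gave 202 rises and 118 falls, and with the replicate block 641 and 528. The replicate block over 12 arrays gave 86 and 20, with 79 of the 98 rises and 16 of the 23 falls, and within each genotype 93 and 88, with 80 and 17. Adding 32 to each signal gave 49 falls and 1 gene in the test of the difference (cyp-14A4), leaving out the lowest 60% of probe sets 3 falls, and an adjusted p under 0.01 43 rises and 5 falls. Fits without 1 array gave 39 to 122 rises, 5 to 71 falls and 0 to 1 genes in the test of the difference (slc-17.3, without replicate 3 of wild type on spg-7 RNAi). Rises numbered 45, 55 and 46 without mutant control replicates 1, 2 and 3, and 41 and 39 without mutant spg-7 RNAi replicates 1 and 2. Falls numbered 5, 6 and 5, and 7 and 5, without the same arrays, 12 without replicate 2 of wild type on spg-7 RNAi, and 15 and 71 without wild-type control replicates 3 and 1. The cause of these shifts was not tested, beyond the fewer arrays or genes of a setting. Of 39 rises and 4 falls the call held in all 12 fits without 1 array. For the named genes, 2507 values under alternatives kept their direction and side of the threshold, 190 lost and 79 gained the call, and none reversed. Dim signals limit the size of changes: 21 called genes had 1 group below the filter level.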

Other observations

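The largest falls in the mutant were not among those called. A change of log2 -3 or below was found in 59 genes, of which 52 did not pass, against 2 of 23 with a change of 3 or above. Of the 52, 50 were called in the paired fit of the 6 mutant arrays, 50 were lowest on spg-7 RNAi replicate 2 among the spg-7 RNAi arrays, and 51 were lowest on replicate 1 among the wild-type control arrays. Their median log2 signal was 10.10, 9.90 and 10.93 on mutant control RNAi against 6.53, 4.95 and 8.03 on mutant spg-7 RNAi. In wild type it was 3.85, 9.62 and 9.13 on control RNAi against 4.46, 7.61 and 7.71 on spg-7 RNAi, so that both arrays of wild-type replicate 1 were low whatever the RNAi. These genes were chosen by their change, so the values are a description.

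Among them were ule-3 and ule-5, genes expressed in the lining of the uterus, which is formed as worms become adult. The gene ule-3 read 2967, 2811 and 6448 on mutant control RNAi against 226, 32.9 and 1435 on mutant spg-7 RNAi (log2 -4.10, adjusted p 0.544, and 0.0115 in the paired fit). On the wild-type arrays it read 73.4, 8732 and 4358 on control RNAi against 113, 6690 and 8481 on spg-7 RNAi. The insulin-like gene ins-31 read 1661, 992 and 2390 against 138, 27.3 and 341 in the mutant (log2 -3.86, adjusted p 0.438, and 0.0018 in the paired fit), and clec-197 read 1707, 1594 and 1983 against 98.9, 8.76 and 166 (log2 -5.06, adjusted p 0.282). The part of stage in these values was not tested.

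Of rises called in the paired fit only, the largest were those of the claudin-like gene clc-25, from 106, 104 and 55.6 to 620, 1282 and 647 (log2 3.24, adjusted p 0.135), K06H6.2 (3.23) and the lectin gene clec-17, from 57.0, 84.2 and 48.2 to 369, 984 and 316 (log2 2.98, adjusted p 0.228). The metallothionein gene mtl-1, which responds to heavy metals, read 109, 143 and 24.9 against 396, 384 and 301 (log2 2.29, adjusted p 0.209) and changed by 4.44 in wild type.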
